A study of Drosophila melanogaster with 3 samples.

Results

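The chemoreceptor genes of Drosophila melanogaster were taken as the protein-coding genes whose symbol begins with Or, Gr or Ir followed directly by a digit. They number 179 of the 13945 protein-coding genes on the 6 chromosome arms, with 59 odorant receptor (Or), 60 gustatory receptor (Gr) and 60 ionotropic receptor (Ir) genes. A region belonged to a gene when its summit, the base of highest signal, lay within 500 bp of one of the gene's transcription start sites (TSSs) or inside the gene. The regions come from chromatin immunoprecipitation followed by sequencing (ChIP-seq) with an anti-GFP antibody, which here captures Dad. Dad is the inhibitory Smad of the fly and restrains BMP signalling. The 3 biological replicates form a single group: whole embryos of mixed sex, 0 to 24 h old, from 1 transgenic line that stably expresses Dad with GFP at its C terminus, with chromatin sonicated to 200 to 800 bp. No other genotype, stage or treatment was analysed here, so the replicates supply the error and no test between groups was possible. Because whole embryos were used, the cells in which a region was bound cannot be told apart.

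Odorant receptors are membrane channels that work together with the shared co-receptor Orco and give each olfactory neuron its odour range. Gustatory receptors detect sugars, bitter compounds and carbon dioxide, and ionotropic receptors are relatives of the ionotropic glutamate receptors that sense acids, amines, temperature and humidity. Each gene is typically used by a small set of sensory neurons. These form late in embryogenesis in the larval head and during metamorphosis for the adult.

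The deposited lists are an optimal list of 3392 peaks, 30000 regions called on the pooled replicates and 30000 regions for each replicate, all on build dm6. The optimal list is a strict set: its lowest signal was 80.7 and its median 122, and 3391 of its peaks were among the same number of strongest pooled regions. The other lists have a fixed length and reach far into weak signal, so a region in them alone is a weak observation. Signal is the peak caller's own value and was read only within a list. No read counts accompany the lists, so depth is unknown.

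Of the 179 chemoreceptor genes, 2 had an optimal peak with its summit within 500 bp of a TSS, Gr63a and Ir60e. This is 1.12% (95% Wilson interval 0.307 to 3.98%), beside 18.4% of all coding genes. Counting summits inside the gene as well left the number at 2, while the share of coding genes rose to 21.6%. None of the 59 Or genes had one (upper limit 6.11%), and the Gr and Ir families had 1 gene each among 60. The intervals cover counting error only, and neighbouring genes are not independent. The 2679 other coding genes of similar length, between 1377.5 and 2204.5 bp, had an optimal peak at a TSS in 17.8% of cases.

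The DNA beneath the peak at Gr63a is printed here with the promoter of Gr21a, the other subunit of the carbon dioxide receptor, and with the region upstream of the Or10a and Gr10a pair, the strongest promoter region of any member outside the optimal list. Each stretch is 296 bp of the RefSeq dm6 sequence, 5′ to 3′. The first is the whole interval between the starts of Gr63a and Lamtor4 (chr3L:3896604-3896899, plus strand). The peak runs past its 3′ end into Lamtor4, so this stretch holds the summit but not the whole peak. The second lies directly before the first start of Gr21a (chr2L:780186-780481, plus strand) and holds no pooled summit. The third is centred on the pooled summit of Or10a and Gr10a (chrX:11417750-11418045, minus strand). Capitals mark the 21 bases centred on a pooled summit. In the first stretch they also mark, at the 3′ end, the 6 bases that begin a match to the core promoter element motif 1.
Gr63a-Lamtor4: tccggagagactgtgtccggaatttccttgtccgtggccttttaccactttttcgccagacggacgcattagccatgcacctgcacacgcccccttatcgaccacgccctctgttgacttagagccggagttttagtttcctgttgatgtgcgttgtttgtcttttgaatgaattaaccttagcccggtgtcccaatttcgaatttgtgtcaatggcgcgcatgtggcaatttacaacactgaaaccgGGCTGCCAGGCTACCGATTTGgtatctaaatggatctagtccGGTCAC
Gr21a: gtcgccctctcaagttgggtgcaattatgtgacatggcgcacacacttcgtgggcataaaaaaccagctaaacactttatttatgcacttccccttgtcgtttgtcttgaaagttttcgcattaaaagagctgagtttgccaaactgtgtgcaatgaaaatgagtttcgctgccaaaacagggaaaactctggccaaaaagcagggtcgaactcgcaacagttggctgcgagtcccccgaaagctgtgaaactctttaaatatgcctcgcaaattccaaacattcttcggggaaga
Or10a-Gr10a: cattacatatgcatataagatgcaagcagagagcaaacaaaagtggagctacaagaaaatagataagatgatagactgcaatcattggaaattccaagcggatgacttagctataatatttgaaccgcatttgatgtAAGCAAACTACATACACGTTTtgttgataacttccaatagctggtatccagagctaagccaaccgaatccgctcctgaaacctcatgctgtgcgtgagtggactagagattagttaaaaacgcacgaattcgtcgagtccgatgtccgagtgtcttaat

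The summit in the first stretch is base 259, close to its Lamtor4 end. The motif 1 match, GGTCACACT on the plus strand, covers chr3L:3896894-3896902 and so crosses the start of Lamtor4, with 6 bases inside the stretch and 3 beyond it. Of 8 motifs searched, none matched wholly within any of the 3 stretches.

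Gr63a (FBgn0035468, 3L 3894999 to 3896603, minus strand) encodes a subunit of the carbon dioxide receptor. Its optimal peak spanned 3L 3896657 to 3897066, with its summit in intergenic sequence, a signal of 91.4 and rank 2775 of 3392. The gene Lamtor4 (FBgn0035469, plus strand), a homologue of a subunit of the Ragulator complex that tethers TOR signalling to the lysosome, starts on the other strand, 297 bp away. The summit lay 259 bp from the start of Gr63a and 38 bp from that of Lamtor4, and the peak ran past that start into Lamtor4. In replicates 1, 2 and 3 the region had a signal of 32.1, 21.4 and 38.5, at ranks 2813, 4831 and 2688. It was therefore within the 3392 strongest regions of replicates 1 and 3 and below them in replicate 2. As a ratio to the median that the optimal peaks had in each replicate, the signal was 0.754, 0.601 and 0.753, a mean of 0.703 ± 0.0878 (SD, n = 3). The replicate summits were 38, 13 and 20 bp from the Lamtor4 start and 259, 284 and 277 bp from the Gr63a start. All 3 were on the Lamtor4 side of the interval, at a mean of 23.7 ± 12.9 bp from its start.

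Ir60e (FBgn0035019, 2R 24529554 to 24531272, minus strand), an ionotropic receptor gene, had the stronger peak. It spanned 2R 24531353 to 24531762, also with an intergenic summit, and had a signal of 138 and rank 1348. The uncharacterised gene CG13585 (FBgn0035020) starts 322 bp away on the other strand. The summit was 286 bp from the start of Ir60e and 36 bp from that of CG13585, and the peak ran past that start into CG13585. Replicates 1, 2 and 3 gave signals of 69, 33.5 and 32.1, at ranks 646, 1926 and 3577. Relative to the replicate medians these were 1.62, 0.943 and 0.627, a mean of 1.06 ± 0.507 (SD, n = 3). Replicate 1 was the highest, and replicate 3 fell outside its 3392 strongest regions. The summits were 32, 36 and 44 bp from the CG13585 start, a mean of 37.3 ± 6.11 bp. They were 285 ± 6.11 bp from the start of Ir60e.

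**Figure D1:**
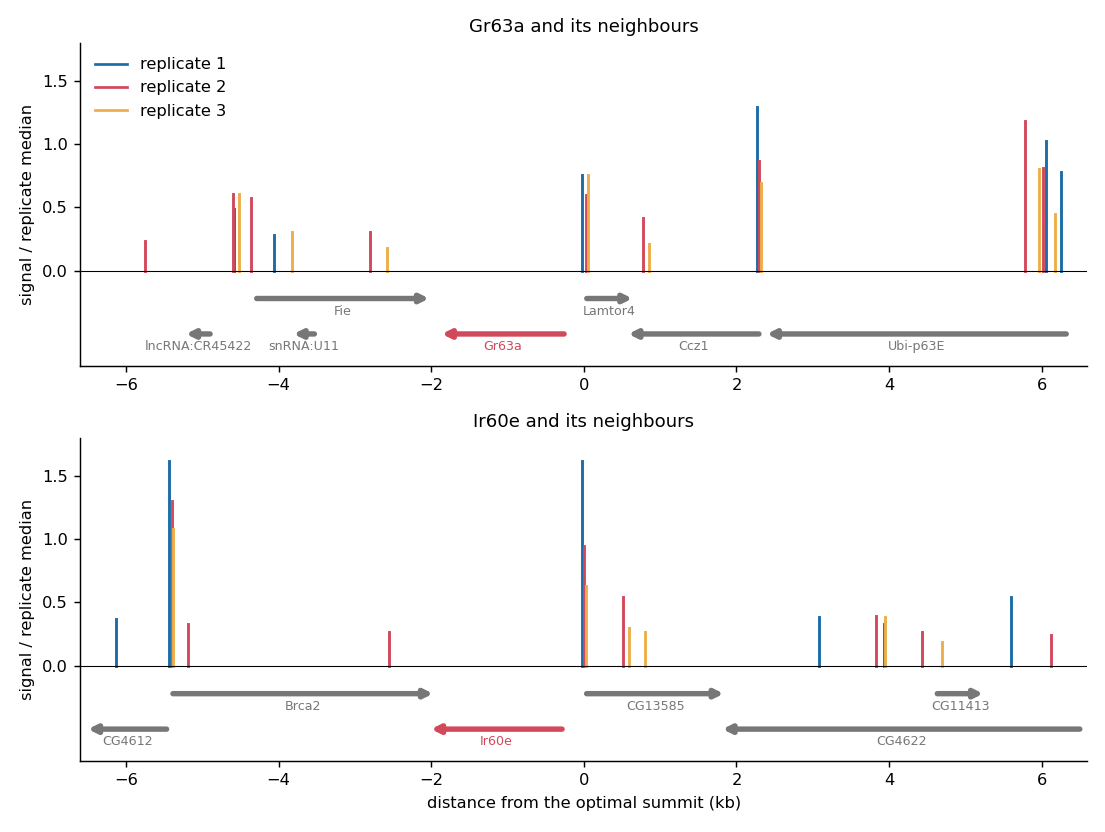
Regions of the 3 replicates around Gr63a (top) and Ir60e (bottom). The x axis is the distance in kb from the optimal summit, the height of each line is the region's signal as a ratio to the median that the optimal peaks had in that replicate, and arrows are genes drawn in their direction of transcription. In both panels the replicate lines at 0 sit at the start of the neighbour on the right, and no line lies within the receptor gene.

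Neither peak had the receptor as its nearest TSS. When each optimal summit was counted only for the gene with the nearest TSS, 0 of 179 chemoreceptor genes had a peak, beside 13.4% of coding genes. Further out, the neighbours differed. Near Gr63a, optimal peaks stood at the starts of Ccz1, a partner in the exchange factor for Rab7, with a signal of 125, and of the polyubiquitin gene Ubi-p63E, with 106. Fie, on the other side of Gr63a, had pooled regions of up to 76.2 but no optimal peak. Near Ir60e, the DNA repair gene Brca2 (whose 3′ end overlaps that of Ir60e) and CG4612 shared a peak of 177. On the other side, CG4622 had pooled regions of up to 88 but no optimal peak at its start, and CG11413 had no pooled region.

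The chemoreceptor genes as a whole were set beside their neighbours, the 247 nearest coding genes on either side that are not receptors themselves. Of these, 29 (11.7%, 8.3 to 16.4%) had an optimal summit within 500 bp of a TSS and 111 (44.9%) had a pooled one. In the pooled list, 17 chemoreceptor genes (9.5%) had a summit within 500 bp of a TSS, beside 55.8% of coding genes. With summits inside the gene added, the number was 26 (14.5%, 10.1 to 20.4%), beside 65.3% of coding genes and 57.1% of the neighbours. By arm the 26 divide into 4 of 31 on 2L, 5 of 46 on 2R, 7 of 35 on 3L, 5 of 42 on 3R and 5 of 25 on X. By family these were 7 Or genes (11.9%), 11 Gr genes (18.3%) and 8 Ir genes (13.3%). The genes that stood next to another chemoreceptor gene had a region in 8 of 80 cases, and the others in 18 of 99.

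In each replicate the receptors likewise stood below their neighbours and below all coding genes. With all 30000 regions, 44, 32 and 31 of the 179 genes had a region at a TSS or inside, in replicates 1, 2 and 3. The shares were 24.6, 17.9 and 17.3%, beside 66.7, 64.5 and 65.2% of coding genes. Replicate 1 held the most, and each receptor share was below the lowest coding share. By the TSS alone the counts were 23, 21 and 18, beside 52.5, 55.2 and 54.5% of coding genes. The mean was 19.9 ± 4.04% (SD, n = 3) for the receptors, 59.4 ± 3.09% for their neighbours, 63 ± 1.1% for genes of similar length and 65.5 ± 1.1% for all coding genes. The family means of 15.8 ± 3.91% for Or, 22.2 ± 2.55% for Gr and 21.7 ± 5.77% for Ir had ranges over replicates that overlapped for every pair of families. Among the 3392 strongest regions of each replicate, the counts were 2, 1 and 1, beside 21.5, 20.5 and 21.3% of coding genes.

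**Figure D2:**
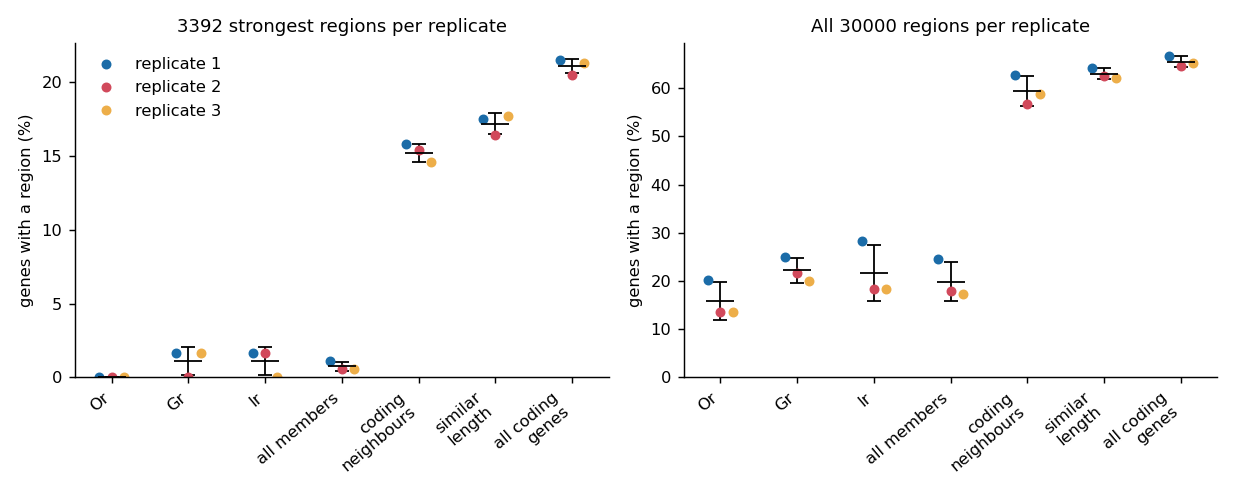
Percentage of genes with a region at a TSS or inside the gene (y axis) for each family, all members, their coding neighbours, coding genes of similar length and all coding genes (x axis), in the 3392 strongest regions (left) and in all 30000 regions (right). Points are the 3 replicates, and bars are the mean and SD. All members lie at 19.9 ± 4.04% on the right, below the 59.4 ± 3.09% of their neighbours.

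Around the start sites the chemoreceptor genes lacked the local rise seen at other genes. In the 250 bp directly upstream of the 5′ end, there were 1.68, 2.23 and 3.35 summits per 100 chemoreceptor genes in the replicates, taken from lowest to highest. The corresponding values were 24.9, 26.6 and 29.2 for all coding genes and 17, 17 and 18.6 for the neighbours. The receptor values did not overlap either of the others. The median distance from a TSS to the nearest pooled summit was 4685 bp for the receptors, 814 bp for the neighbours and 331 bp for all coding genes. To the nearest optimal summit the medians were 23986, 20043 and 8831 bp. After Gr63a and Ir60e at 259 and 286 bp, the next were Or88a at 756 bp, Or9a at 1019 bp and Gr89a at 1384 bp. Only 22 of the 179 had an optimal summit within 5000 bp (12.3%), beside 37.7% of coding genes.

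**Figure D3:**
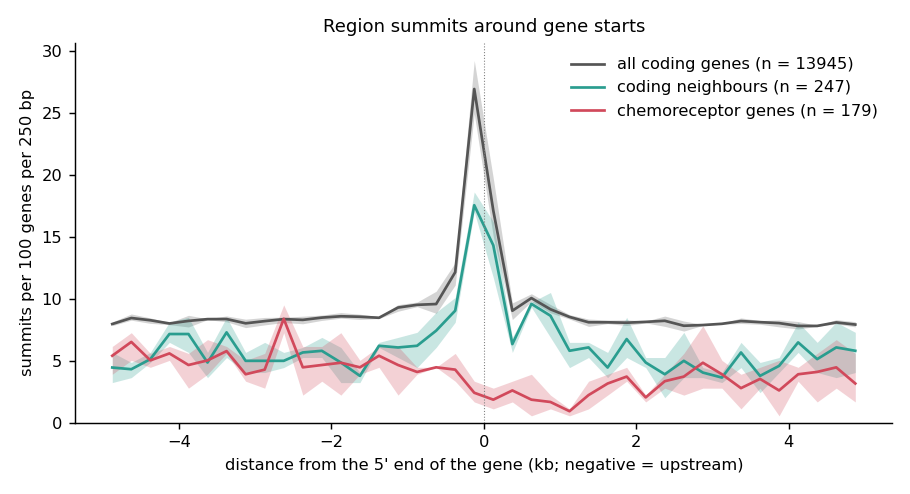
Summits per 100 genes in bins of 250 bp (y axis) against the distance in kb from the 5′ end of the gene (x axis). Lines are means over the 3 replicates and bands run from the lowest to the highest replicate. The peak at the start seen for all coding genes and for the neighbours is missing for the 179 chemoreceptor genes.

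Over the gene spans, counted from start to end, the regions were sparse too. Summits just downstream of a TSS enter these densities, so they are not separate from the counts at start sites. The merged spans of the chemoreceptor genes covered 467 kb and held 18 pooled summits, or 38.6 per Mb (95% Poisson interval 22.9 to 61). All coding genes held 245 per Mb and the neighbours 164 per Mb. Long Ir genes weigh heavily here. Without members longer than 10 kb the density was 53.3 per Mb (31.6 to 84.3), beside 376 per Mb in genes of similar length. Ir41a, chosen after its values were seen, spans 104437 bp and had no region in any list.

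Those regions that the chemoreceptor genes did have were weak. Of the 26 regions of the pooled list, 2 (7.69%) had a −log10 q of at least 2, those of Gr63a and Ir60e, beside 20.5% of the pooled regions at coding genes and 19.8% of the whole pooled list. Their median rank was 18406.5 of 30000, and that of all regions at coding genes was 14737. A coding sequence held the summit in 15 of the 26 (57.7%), beside 26.8% for all regions at coding genes. Introns held 3.85% and 44.8%, and the sets were not matched for gene length or intron content. Of the 26, 18 lay inside the receptor gene. In the replicates the coding-sequence share was 72.5, 44.4 and 61.1%.

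Regions at the same gene in more than 1 replicate were uncommon. A region at a TSS or inside the gene, at whatever position, was present in none of the replicates for 112 chemoreceptor genes (62.6%), in 1 for 39, in 2 for 16 and in all 3 for 12 (6.7%). Of all coding genes, 21.6% had none and 52.2% had a region in all 3. These 12 were Ir60e, Gr63a, Ir93a, Gr97a, Or45b, Ir25a, Ir76a, Gr61a, Or2a, Gr39a, Gr64f and Or9a, and their regions need not coincide. At Gr39a the pooled region was overlapped by no replicate region. Counting only sites, where a pooled region was overlapped by at least 1 bp in every replicate, left 9 genes (5.03%), beside 43.9% of coding genes. The 9 were Ir60e, Gr63a, Ir93a, Ir60b, Or45b, Ir76a, Gr64f, Or2a and Gr61a. Per region the contrast was smaller, with 9 of 26 pooled regions (34.6%) overlapped in all 3 replicates, beside 42.2% of the pooled regions at coding genes. Relative to the replicate medians, the 7 sites besides Ir60e and Gr63a had mean signals between 0.226 ± 0.0513 for Gr61a and 0.385 ± 0.0838 for Ir93a. None of these 7 reached the median optimal signal in any replicate. They lie outside the optimal list, which holds almost only the strongest pooled regions, so lower values follow largely from that sorting. Replicate signals in the paragraphs on single genes are those of regions that overlap the pooled region, where the gene has one.

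**Figure D4:**
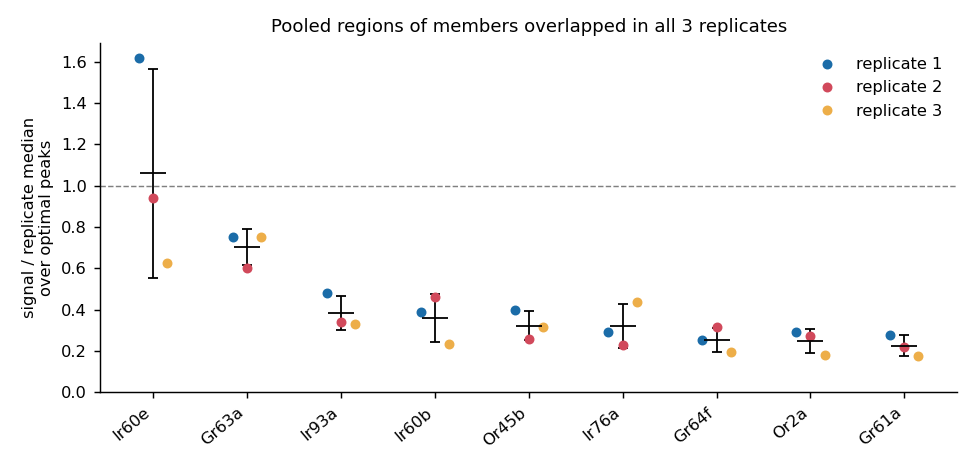
Signal as a ratio to the median optimal peak of the replicate (y axis) for the 9 chemoreceptor genes whose pooled region was overlapped in all 3 replicates (x axis). Points are the overlapping replicate regions, bars are the mean and SD, and the dashed line at 1 is the median optimal peak. Ir60e at 1.06 ± 0.507 and Gr63a at 0.703 ± 0.0878 stand above the other 7, whose means are at most 0.385. The other 7 lie outside the optimal list, so this gap follows largely from the sorting by strength.

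Of Ir8a, Ir25a and Ir76b, co-receptors that pair with the tuning receptors, only Ir25a had a pooled region. The region had a signal of 29.4 (rank 18679) and its summit in coding sequence, 997 bp from a start. At that site replicates 1 and 2 had signals of 11.7 and 12.9 and replicate 3 had no region. The strongest regions of replicates 1 and 3 at the gene lay elsewhere, 220 bp from a start of Ir25a (14.2) and 325 bp from the start of Fnta (17.1). Ir8a had regions in replicates 1 and 2 (16.1 and 8.37), and Ir76b in replicate 3 alone (11.4). Ir93a, which acts with Ir25a in the sensing of temperature and humidity, had the highest pooled signal after Gr63a and Ir60e (49.3, rank 7481). Its replicate signals were 20.5, 12.2 and 16.9. The summit lay in an intron, 7259 bp from the start, and 46.3% of the 31-base words of the gene occur once in the genome. Ir76a, a receptor for amines, had a pooled signal of 44.1 (rank 9057) and replicate signals of 12.5, 8.16 and 22.4, the first with its summit 350 bp from the pooled one. The pooled summit was 80 bp from the start of CG14102 and 119 bp from its own. Ir60b (39.8, rank 10807), a receptor of pharyngeal neurons, likewise had its summit next to another gene, at 39 bp from the start of Letm1 and 326 bp from its own. The overlapping replicate regions had signals of 16.5, 16.4 and 11.9. Ir7g had a pooled signal of 33 and replicate signals of 10.9 and 10.6 in replicates 1 and 2. Ir40a (humidity), Ir84a (food-derived aromatic compounds) and Ir92a (amines) had no region in any list.

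Of the carbon dioxide receptor pair, Gr21a differed from Gr63a in having no optimal peak. Its pooled region (29.7, rank 18402) had its summit in the 5′ UTR, 181 bp from the nearest start. The gene had no region in replicate 1 and signals of 12.7 and 11.7 in replicates 2 and 3. Among the sugar receptors, Gr64f had a pooled signal of 32 and replicate signals of 10.8, 11.2 and 9.97, with the summit 1676 bp into the gene. Gr61a had 28 in the pooled list and 11.9, 7.87 and 9.1 in the replicates, the last with its summit 315 bp from the pooled one. The pooled summit lay 70 bp from the start of Gr61a, and JMJD5 starts 91 bp away on the other strand. Gr64a had a pooled signal of 24.7 and a region in replicate 1 (12.5). Gr5a had regions in replicates 2 and 3 (12.9 and 9.69) and none in the pooled list, and the fructose receptor Gr43a had none anywhere. Of the bitter receptors, Gr33a had a region in replicate 1 (15.8) and Gr66a in replicate 3 (13). Gr93a, needed for the response to caffeine, had a pooled signal of 40 with regions in replicates 1 and 3 (22.8 and 13.4), 80 bp upstream of its start. Gr97a had 28.5 in the pooled list, inside the gene, and 13.8 and 10.9 there in replicates 1 and 3. Replicate 2 had no region at that site, and its region of 19.3 lay 4 bp from the start of CG5521 and 449 bp from that of Gr97a. Gr39a had a pooled signal of 23. Gr28b, which has a role in heat sensing, had no region.

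Among the odorant receptors, Or10a and the gustatory receptor Gr10a share 1 gene record and therefore the same regions. The strongest, with the summit printed above at 476 bp upstream, had a pooled signal of 48.3 (rank 7747) and was found in replicates 1 and 2 (18.2 and 23.6) but not in replicate 3. Or45b, an odorant receptor of larval neurons, had a pooled signal of 46.4 (rank 8295) in coding sequence 263 bp from its start. The replicate signals at that site of 17, 9.15 and 16 gave 0.323 ± 0.0711 of the replicate medians. Or85f had 31.4 in the pooled list and 12.9 in replicate 2. Or2a had 30.3, and its replicate signals were 12.4, 9.66 and 9.33. Or9a had 23.2 at its start, with 8.89 and 10.6 in replicates 2 and 3, and replicate 1 had no region at that site. Of the receptors with known ligands, Or42b (fruit esters), Or47b (fatty acid pheromones) and Or56a (geosmin) had a region in 1 replicate each, with signals of 14.8, 11.8 and 13.9. Or22a (fruit esters) and Or67d (the pheromone cis-vaccenyl acetate) had none. Orco, the co-receptor that the symbol rule leaves out, had a region in replicate 3 alone (9.49).

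Gr63a and Ir60e both face another gene at short range, and this arrangement was examined over all members. A coding gene other than a chemoreceptor gene started on the other strand within 1000 bp of 21 members. The partner genes of 12 of the 21 (57.1%) had a pooled summit within 500 bp of a TSS, close to the 55.8% of all coding genes. Any TSS of the partner counted, which need not be the one that faces the member. Of the 21 members, 6 (28.6%) had one at their own TSS. A region at a partner's start can fall within 500 bp of both starts, so the members' count is in part set by the distance. The 6 were Ir76a, Gr61a, Gr63a, Ir60e, Ir60b and Gr64a, and the partner of each was among the 12. An optimal peak stood at 3 of the 21 partners (14.3%, beside 18.4% of coding genes), which were Lamtor4, CG13585 and the DNA damage regulator p53. The peak at p53 had a signal of 176. A start of p53 is 459 bp from that of Gr94a, but the nearest optimal summit to the start of Gr94a was 2456 bp away. The 117 isolated members overlap no coding gene and have no start of a gene outside the families within 1000 bp. None had an optimal peak, and none had a region among the 3392 strongest of any replicate. The share for coding genes isolated in the same way was not computed, so no matched background stands beside these counts.

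Sequence that cannot be placed uniquely was rare in the families. The median share of 31-base words that occur once in the genome was 100% both for the members and for all coding genes, and 6 members were under 90%. These were Or19b (16.4%), Or19a (17.6%), Ir93a, Ir41a (70.1%), Ir40a (75.1%) and Ir10a (84.3%), of which those outside the naming rule were chosen after their values were seen. Among the 173 members with at least 90% the counts were 2 in the optimal list (1.16%, coding genes 22.2%) and 25 in the pooled list (14.5%, coding genes 67.2%). The GC content of the 1001 bp around the start had a median of 42.2% for the members and 42.4% for all coding genes. Other coding genes with a GC content between the members' quartiles had an optimal peak in 24% and a pooled region in 67.8% of cases.

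Upstream sequence was searched on both strands for 8 motifs in the 296 bp before each start, with no motif contained in another. The DNA replication-related element TATCGATA was found before 0 of the 179 members and 8.54% of coding genes, and motif 1, GGTCACACT, before 0 and 3.57%. The GAGA factor motif GAGAGAG stood before 0.559% of members and 5.87% of coding genes. The TATA motif TATAAA was before 50.8% of members and 47.5% of coding genes, with 72.9% of Or, 51.7% of Ir and 28.3% of Gr genes. The GC-rich Smad motif GGCGCC was found before 2.23% and 4.89%, the Smad palindrome GTCTAGAC before 0.559% and 0.136%, the Zelda motif CAGGTAG before 1.12% and 1.79%, and the E-box CAGCTG before 10.1% and 15.1%. In 296 bp around the optimal summits, TATCGATA was present in 7.75%, GGTCACACT in 3.66% and TATAAA in 38.2%. Of the 296 bp windows around the 26 pooled summits at the members, 1 held motif 1 (Gr63a, at the Lamtor4 start) and 1 held TATCGATA (Ir76a). GGCGCC was in 1 (Gr21a), beside 5.84% of windows around optimal summits. CAGCTG was in 3, at Ir76a, Ir54a and inside the Or10a and Gr10a record, beside 16.8%, and TATAAA was in 2, at Ir76a and Gr61a. GTCTAGAC, CAGGTAG and GAGAGAG were in none, beside 0.118%, 1.56% and 7.72% of windows around optimal summits. Most of the 26 windows, that of Ir60e among them, held none of the 8 motifs. A match describes these letters only.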

How the data were processed

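Per the labels, 3 biological replicates of Dad-GFP embryos were immunoprecipitated with anti-GFP. As the file listings state, 30000 regions were called by the authors per replicate and on the pooled alignments, each against a control that was not analysed here, and kept an optimal list by reproducibility. For the aligner, caller, versions and threshold, the sources used here give nothing. The deposited signal is the caller's own value per region without scaling between libraries, and it served for ranks within a list or as a ratio to the median that the optimal peaks had in a replicate (42.6, 35.6 and 51.1 in replicates 1, 2 and 3). The deposited −log10 q has a ceiling (3.87 in the optimal list) and served only as a filter at 2. The deposited summit offset lay past the region's end in 3 optimal peaks, where the last base was taken. Depth is unknown, and shallower libraries fill a fixed-length list with more background. Those reaching a −log10 q of 2 numbered 3927, 6376 and 6410 in the replicates.

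Regions on dm6 were matched to Ensembl genes (release 115) and to the RefSeq genome of the same assembly, whose arm lengths no region exceeded. The dm3 lists were not used. Intervals are Wilson for shares and exact Poisson for densities, at 95%, for counting error only. No p-value was computed, because 1 group allows no comparison. The counting was tested on simulated regions. Python 3.11.15, numpy 2.4.6, scipy 1.17.1 and matplotlib 3.10.9 were used.

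The members, lists and alternatives were chosen with earlier results of these data known. Genes were named by rule: members with an optimal summit and their neighbours, the 10 further members of highest pooled signal, those with a region in all 3 replicates, a list of well-known receptors, and genes of related lists with an optimal promoter summit. Other names, and the matching of replicate regions to pooled regions by an overlap of at least 1 bp, were chosen after values were seen. Alternatives covered the window, the choice of TSS, overlap in place of summit, isolated members, nearest TSS only, list length, the q filter and leaving out each replicate.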

Additional observations from a re-analysis of the deposited data

How the results depend on the processing

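Of 63 alternative settings over 7 results, 27 moved the value little and 36 moved it. A change of 2 to 3 members or of 29 to 20 neighbours counted as little, and a mean of 35.7 to 44 as moved. Counts for the isolated members are over 117 genes in place of 179, so part of their fall is the smaller number. In 50 of 50 settings over the full member list, the share or density of the chemoreceptor genes stayed below that of coding genes.

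The 2 members with an optimal peak, by the TSS alone or with the gene body, became 3 with a window of 1000 bp and 0 with 250 bp. They became 0 for the isolated members, 0 with the nearest TSS only and 1 with the stronger 1696 peaks. Overlap in place of summit, with the gene body, gave 3. With the optimal list replaced by the top regions that the remaining replicates share (2301, 2391 and 2285 of them), the count was between 0 without replicate 1 and 1 without replicate 2 or 3. Among the isolated members, 13 of 117 (11.1%) had a pooled region, beside 26 of all 179 (14.5%). The 26 became 2 with a −log10 q of at least 2 and 7 in the 10000 strongest regions. On leaving out a replicate they became between 12 and 16. The 29 neighbours with an optimal summit became 15 with the stronger peaks and between 19 and 21 on leaving out a replicate.

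The mean of 1.33 ± 0.577 members among the strongest regions became 0 at 250 bp, 2.33 at 1000 bp, 2.67 by overlap, 0 for the isolated members, 0.333 with 1696 regions and 6.33 with 10000, and was between 1 and 1.5 on leaving out a replicate. The mean of 35.7 ± 7.23 members with any region became 44 at 1000 bp and 3 with the q filter. For the isolated members the mean was 18.7 of 117 (16%), beside 19.9% of all members. The density of 38.6 per Mb became 0 with the q filter, 6.43 with the 10000 strongest regions and between 15 and 21.4 on leaving out a replicate. Stricter lists hold fewer regions by construction. No paired analysis was possible because there is only 1 group.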

Other observations

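Other genes of the chemosensory system were counted by the same rules. Odorant binding proteins carry odorants in the fluid around olfactory neurons. Of their 52 genes, 1 had an optimal summit at a TSS (1.92%), beside 18.4% of coding genes. A pooled region at a TSS or inside was present for 10 (19.2%), beside 65.3% of coding genes. The mean over replicates was 23.1 ± 1.92% (SD, n = 3), beside 65.5 ± 1.1% of coding genes. The one with an optimal peak was Obp99b, with a signal of 144 and replicate signals of 56.8, 31.1 and 50.9. All 3 replicates placed it within their 3392 strongest regions. The optimal summit, at 3R 29717123, lay outside the gene (29716254 to 29716896), and whether another gene starts nearer was not examined. Of the membrane genes, Snmp1, which acts in pheromone detection, and Snmp2 each had a pooled region (22.7 and 39.1) and no optimal one.

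Genes that regulate receptor choice, and the Myb-MuvB complex, which represses or activates target genes and restrains the carbon dioxide receptor genes in other olfactory neurons of the fly, were counted too. Of 13 regulators, 8 (61.5%) had a pooled region, beside 65.3% of coding genes, and 2 (15.4%) had an optimal summit at a TSS, zf30C (203) and Xbp1 (186), while sim had one inside the gene (90.7). All 9 Myb-MuvB genes had a pooled region, and 4 had an optimal summit: Dp (254), mip120 (101), Rbf (101) and E2f2 (81.2). Dp had 3 optimal peaks at its starts, and the replicate signals at the strongest were 101, 58.7 and 112. These lists are small and were described by their counts, beside 18.4% of coding genes with an optimal summit at a TSS.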
